A study of Mus musculus with 6 samples.

Results

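The resident-like macrophages of B16-F10 melanoma described here were selected on measured transcripts, and 2498 barcodes met the selection. A barcode with 600 to 4000 genes and at most 10% mitochondrial (mt-) UMIs was taken when it held at least 3 UMIs of the complement genes C1qa, C1qb and C1qc summed, at least 3 UMIs of Lyve1, Folr2 and Fcna summed, no UMI of Cd3d, Cd3e or Cd3g and no UMI of Cd79a, Cd79b or Ms4a1. A UMI is a molecular tag that counts each captured transcript once. The 2498 cells were 4.72% of the 52899 barcodes, 8.31% of the 30067 barcodes that passed the gene and mt- limits, and 32.5% of the 7686 C1q macrophages, the barcodes that met every condition except that on Lyve1, Folr2 and Fcna. The other 5188 C1q macrophages had a sum of 0 (3573 cells), 1 (1033) or 2 UMIs (582) of those 3 genes and served as the reference population.

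CD45+ cells from B16-F10 tumors, a pigmented melanoma line grown in syngeneic female C57BL/6 mice aged 6 to 10 weeks, were profiled in 2 groups, αPD-1 (n = 3 samples) and αPD-1 + corin (n = 3). Both groups had antibody to the T cell checkpoint receptor PD-1, at 150 μg 3 times a week from day 7 after grafting. Corin, which inhibits the deacetylase and demethylase activities of the CoREST repressor complex, was injected daily at 200 μg from day 6 in the αPD-1 + corin group, and the αPD-1 group took the vehicle, PBS with 5% DMSO. Treatment groups held 10 mice, but which mice gave which sample, and whether animals were pooled, was not given in the sources used here, so the tests below measure the spread between samples, which may be partly technical. Tumors were dissociated with enzymes and frozen, dead cells were removed after thawing, CD45+ cells were taken on magnetic beads, and about 23000 cells were loaded with a 5′ droplet kit. The αPD-1 + corin libraries were larger, with 78092774 to 84276739 UMIs and 9637 to 13228 barcodes against 52281422 to 63748460 UMIs and 6433 to 7000 barcodes, so that library size and treatment cannot be told apart. Of 52600 barcode sequences, 299 occurred in more than 1 library, and 0 of these belonged to a resident-like macrophage.

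Some tissue-resident macrophages settle along vessels and in connective tissue, where they take up dying cells, iron and lipoproteins and release chemokines and growth factors. LYVE1, a hyaluronan receptor first described on lymphatic endothelium, and FOLR2, a folate receptor, are surface markers of the perivascular population, and FCNA is a lectin that starts the complement cascade. In tumors such cells exist beside macrophages derived from blood monocytes, which carry more of the inflammatory and antigen-presenting programs.

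The label was set beside markers that the selection did not use. These were chosen with earlier results of these data known, so their levels are a description and not an independent check. Cbr2, a carbonyl reductase of resident macrophages, Ccl8, a chemokine for monocytes and eosinophils, and Cd5l, a scavenger protein secreted by macrophages, were each higher in the resident-like than in the other C1q macrophages in 6 of 6 samples. Cd5l was detected in a minority of the cells, on average 11.1% of the resident-like macrophages under αPD-1 and 22.3% under αPD-1 + corin. For Cbr2 the shares were 86.6 and 88.8%. Cbr2 averaged 1340 against 151 CPM (the UMIs of a gene summed over a class of cells in a sample, scaled to the same total for every class and sample), Ccl8 3859 against 702 CPM and Cd5l 112 against 8.88 CPM. Timd4 and Vsig4, a phosphatidylserine receptor and a complement receptor of some resident macrophages, were near absent, at 0 to 24.0 and 0 to 9.93 CPM per sample after TMM scaling (the correction of library sizes used in the test below), and Gata6, the transcription factor of peritoneal macrophages, was at 0. Endothelial RNA was low, and at most 0.286% of the resident-like macrophages in any sample had 2 or more UMIs of the endothelial genes Cdh5, Cldn5, Prox1 and Mmrn1. The cells are called resident-like for these markers, and their origin was not measured.

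Folr2 carried the selection. It was detected in 2470 of the 2498 cells, Fcna in 1324 and Lyve1 in 1228. Lyve1 lies on chromosome 7 at 110448585-110462460, Folr2 on the same chromosome at 101489195-101506401 and Fcna on chromosome 2 at 25514671-25519013, all 3 on the minus strand of GRCm39. The share of resident-like macrophages with a Lyve1 UMI was 55.2, 50 and 50% in αPD-1 replicates 1 to 3 and 53.0, 28.9 and 44.6% in αPD-1 + corin replicates 1 to 3, the order used for every list of sample values from here on. In T cell barcodes thinned to 2000 UMIs each, where these genes should be silent, 0 to 0.617% held a Lyve1 UMI in any sample, and the same range held for Fcna. The T cell barcodes numbered 261 to 1172 per sample with a median depth of 2385 to 4434 UMIs, against 4478.5 to 8460.5 UMIs for the resident-like macrophages. At the edge of the selection, the 426 cells with exactly 3 UMIs of the 3 genes had 702 CPM of Cbr2 and the 582 cells with 2 UMIs had 575 CPM, against 1636 CPM over all selected cells and 91.7 CPM over C1q macrophages with none, all pooled over the samples. The cells on the 2 sides of the threshold were therefore close in Cbr2. Of them, 279 of the 426 and 362 of the 582 came from αPD-1 + corin replicate 1. Whether the cells form a continuous range was not tested.

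How the resident-like macrophages differed from the other C1q macrophages of the same sample is a description, since the cells were split on the counts compared. Of 3347 genes with at least 50 CPM in either class, 615 were higher and 794 lower in the resident-like macrophages in 6 of 6 samples. Of these, 105 and 114 differed by more than 1 on the log2(CPM + 1) scale on average over the samples. Cd209f, a C-type lectin of the DC-SIGN family, was at 99.5 against 1.24 CPM, a mean log2 difference of 5.11. Ltc4s, which makes the leukotriene LTC4, was at 482 against 42.5 CPM (3.76). All 22 resident identity genes at this level, from a list chosen with earlier results of these data known, were higher in 6 of 6 samples. The receptors for uptake were divided. Of 21 scavenger and apoptotic-cell receptors, 10 were higher and 3 lower in 6 of 6 samples, with a median of 0.32 against -0.06 over all 3347 genes. Cd163, which takes up hemoglobin bound to haptoglobin, was at 183 against 25.3 CPM (3.04) and the scavenger receptor Marco differed by 3.17, while Axl, a receptor for Gas6 on dying cells, was at 34.0 against 62.6 CPM (-1.03) and the integrin chains Itgav and Itgb5 differed by -0.74 and -0.78. The neonatal Fc receptor Fcgrt differed by 2.77. Gas6, which bridges dying cells to MERTK, was at 302 against 45.9 CPM (2.75), and Apoe differed by 1.40.

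The lower genes were headed by AA467197, with a log2 difference of -2.67. Of 16 cytokines and inflammatory mediators, 7 were lower and 3 higher in 6 of 6 samples. Also lower in 6 of 6 samples were 19 of 21 hypoxia and glycolysis genes and 20 of 26 immediate early and heat shock genes, with 0 higher in either list. Cxcl9, the interferon-γ-induced chemokine that attracts T cells, was at 69.8 against 328 CPM (-2.56), and Il1b was at 107 against 312 CPM (-2.45). Ptgs2, the inducible prostaglandin synthase, differed by -2.36, the monocyte gene Vcan by -2.29 and the cystine transporter Slc7a11 by -2.21. Of 12 MHC class II genes, 8 were lower and 2 higher in 6 of 6 samples, with the class II chain H2-Aa at 1031 against 2078 CPM and the invariant chain Cd74 at 2377 against 4853 CPM. Class I genes were divided, with 3 of 20 higher and 3 lower in 6 of 6 samples, and the class I chain H2-D1, at 2265 against 1580 CPM, was among the higher.

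**Figure D1:**
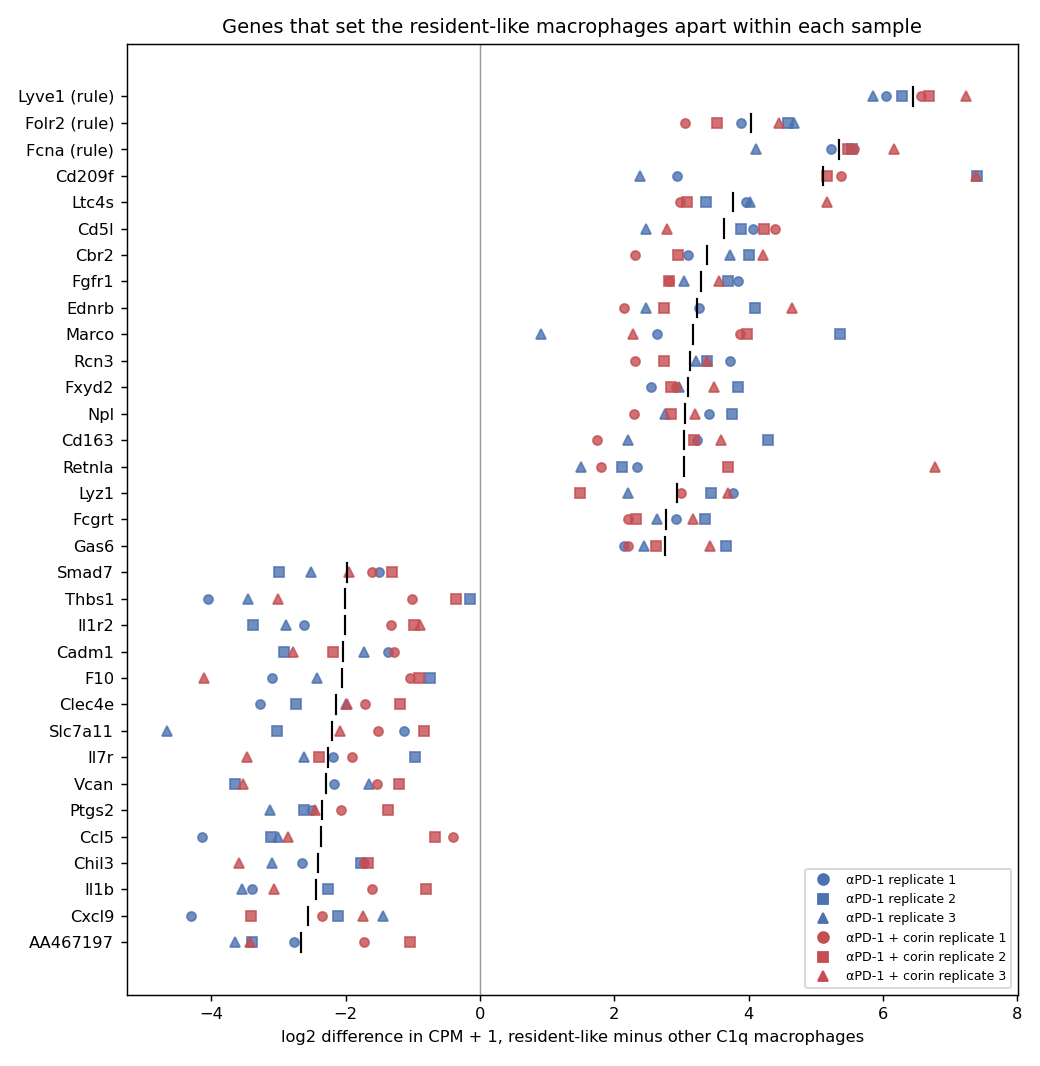
Difference in log2(CPM + 1) between the resident-like and the other C1q macrophages of the same sample for the 3 genes of the selection (marked rule) and for genes outside it, with 1 symbol per sample, blue for αPD-1 and red for αPD-1 + corin, and a black bar at the mean of the 6 samples. Lyve1 differed by 6.45, Cd209f by 5.11 and Cbr2 by 3.38, while Cxcl9 and Il1b lay below 0 in all 6 samples.

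Within the resident-like macrophages, cells with and without a Lyve1 UMI differed in many genes in the same direction in every sample. They numbered 58 and 47, 47 and 47 and 26 and 26 under αPD-1 and 942 and 834, 101 and 249 and 54 and 67 under αPD-1 + corin. A cell without a Lyve1 UMI can still express the gene, so the 2 subsets overlap in kind, and the contrast is again a description. Of 3266 genes with at least 50 CPM in either subset, 278 were higher and 460 lower with Lyve1 in 6 of 6 samples.

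Of 23 resident identity genes outside the selection, 15 were higher with Lyve1 in 6 of 6 samples and 0 lower. Cd209f was at 206 CPM with and 7.51 CPM without Lyve1 on average over the samples, a log2 difference of 4.75 ± 0.804 (SD, n = 6), and its neighbor Cd209g differed by 4.40. The growth factor receptor Fgfr1 was at 190 against 23.6 CPM (3.47). Gas6 was at 447 against 174 CPM and Cbr2 at 1829 against 906 CPM, both higher with Lyve1 in 6 of 6 samples. Ccl8 and the mannose receptor Mrc1 were less regular, being higher with Lyve1 in 4 and in 5 of the 6 samples.

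Of 11 MHC class II genes, 8 were lower with Lyve1 in 6 of 6 samples and 0 higher, and of 20 class I genes 6 were lower and 0 higher. H2-Aa with Lyve1 was at 173, 208 and 250 CPM under αPD-1 and 298, 276 and 1347 CPM under αPD-1 + corin, and without Lyve1 at 1127, 1371 and 1046 CPM and 859, 1542 and 3202 CPM. Cd74 averaged 1032 against 3452 CPM, a log2 difference of -2.03. Cells without Lyve1 also held more of the matrix glycoprotein Spp1, the arginine-consuming enzyme Arg1, the phosphatase Acp5 and the platelet chemokine Ppbp, which differed by -2.78, -1.74, -2.79 and -2.90. Median depth was lower with than without Lyve1 under αPD-1, at 5380.5 against 7284, 8136 against 8584 and 4535 against 7647.5 UMIs per cell. Under αPD-1 + corin it was higher with Lyve1, at 5007 against 4028.5, 7591 against 6394 and 5891.5 against 5770 UMIs. The part of depth in this contrast was not tested.

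**Figure D2:**
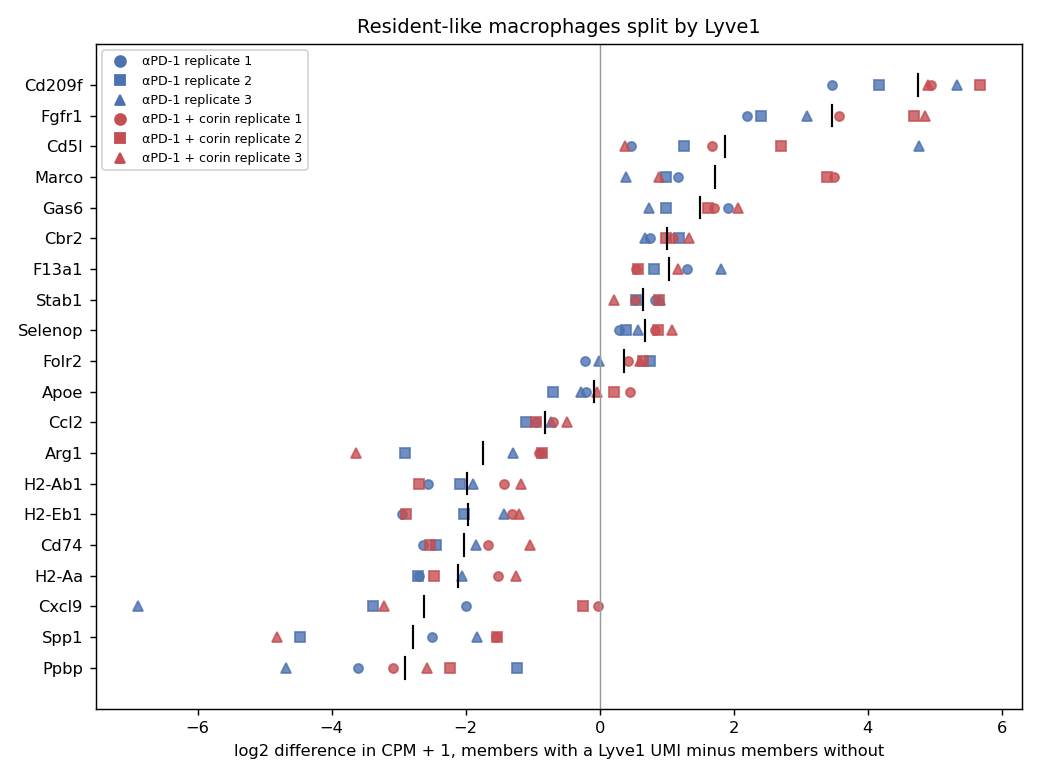
Difference in log2(CPM + 1) between resident-like macrophages with and without a Lyve1 UMI, with 1 symbol per sample and a black bar at the mean of the 6 samples. Cd209f, Fgfr1, Gas6 and Cbr2 lay above 0 and H2-Aa, Cd74, Spp1 and Ppbp below 0 in all 6 samples, while Folr2 and Apoe had means of 0.36 and -0.09.

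The first comparison between treatments was the abundance of these cells. They numbered 105, 94 and 52 under αPD-1 and 1776, 350 and 121 under αPD-1 + corin, so that 71.1% of all of them came from αPD-1 + corin replicate 1. Among C1q macrophages they made up 19.6% (95% Wilson interval 16.4 to 23.1), 15.6% (12.9 to 18.7) and 11.6% (8.94 to 14.9) under αPD-1 and 44.9% (43.3 to 46.4), 30.2% (27.6 to 32.9) and 12.3% (10.4 to 14.6) under αPD-1 + corin, with intervals that cover counting error only. αPD-1 + corin replicates 1 and 2 lay above every αPD-1 sample, while replicate 3 lay within their range. The means were 15.6 ± 3.99% and 29.1 ± 16.3% (SD, n = 3 each), a difference of 13.6 percentage points (two-sided exact permutation test, p = 0.3, where 3 against 3 samples cannot go below 0.1). Leaving out αPD-1 + corin replicate 1 brought the difference to 5.69 points, and leaving out replicate 3 brought it to 21.9 points. The level of Folr2, on which the selection rests, also differed between the groups. After TMM scaling it was at 735, 800 and 802 CPM against 1467, 1008 and 1187 CPM in the resident-like macrophages. In the other C1q macrophages it averaged 36.7 and 100 CPM. The part of the Folr2 level in the shares was not tested.

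Of all barcodes that passed the gene and mt- limits, the resident-like macrophages were 2.35, 2.50 and 1.18% under αPD-1 and 21.4, 8.39 and 2.45% under αPD-1 + corin. αPD-1 + corin replicate 3 again fell just below the highest αPD-1 sample, and the difference of 8.73 points did not pass an exact permutation test (p = 0.2, and 0.3 when adjusted over the 3 shares compared). The whole class of C1q macrophages was 12.7 ± 2.99% and 31.8 ± 14.3% of the same barcodes, without overlap (exact permutation p = 0.1, adjusted 0.3). A threshold of 2 or of 5 UMIs, a limit of 5% mt- UMIs and thinning every barcode to 2000 UMIs each gave groups that did not overlap. So did removing barcodes with 2 or more UMIs of neutrophil, melanoma or endothelial genes. The differences were 6.31 to 11.9 points, each with an exact permutation p of 0.1. With no upper limit on genes and with doublet scores the groups overlapped, at 7.24 points (exact permutation p = 0.3) and 8.51 points (exact permutation p = 0.2). Leaving out αPD-1 + corin replicate 1 lowered the difference to 3.41 points. Removing neutrophil, melanoma or endothelial barcodes also lowered the number of filtered barcodes. In αPD-1 + corin replicate 3 the resident-like macrophages went from 121 to 115 and the filtered barcodes from 4931 to 3819. The share of that sample rose from 2.45 to 3.01%, against 2.50 and 2.52% in αPD-1 replicate 2. The 5% mt- limit and thinning left αPD-1 + corin replicate 3 with 4200 and 3893 filtered barcodes. The part of these totals in the lost overlap was not tested.

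**Figure D3:**
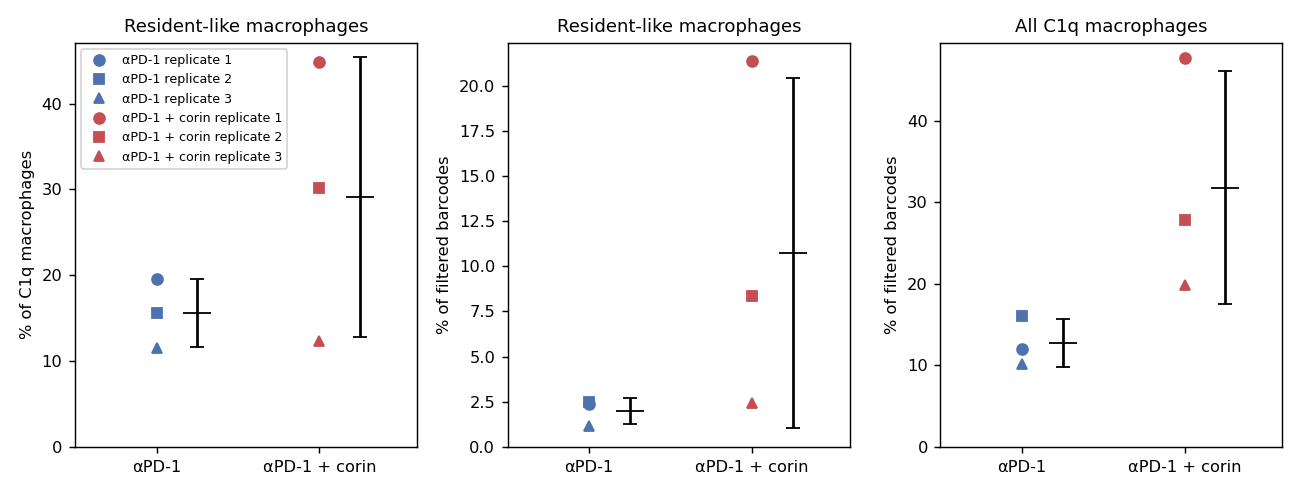
Share of resident-like macrophages among C1q macrophages (left) and among filtered barcodes (middle), and share of all C1q macrophages among filtered barcodes (right), in percent, with 1 symbol per sample beside the mean and SD of 3 samples. The αPD-1 + corin group spans 12.3 to 44.9% in the left panel and overlaps the αPD-1 group, whose highest sample is at 19.6%.

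What the selected cells contained besides macrophage transcripts moved with treatment in part. Cells with 2 or more UMIs of the neutrophil genes S100a8 and S100a9 were 0.952, 1.06 and 0% of the resident-like macrophages under αPD-1 and 10.0, 18.6 and 0% under αPD-1 + corin. After thinning to 2000 UMIs, T cell barcodes with an S100a8 UMI were 0.339 to 1.16% and 4.64 to 40.3%, against a mean of 0.317 and 9.43% of the resident-like macrophages, means that lie below or within the T cell range. The neutrophil list of 15 genes summed to 141 to 187 CPM in the αPD-1 and 311 to 3103 CPM under αPD-1 + corin, with Camp at 0, and the monocyte list of 11 genes to 479 to 841 and 962 to 4113 CPM. Fibroblast genes summed to 8.44 to 13.8 and 5.36 to 265 CPM. The melanoma list summed to 572 to 1004 and 361 to 670 CPM, and the dendritic cell list to 672 to 707 and 805 to 933 CPM, higher in every αPD-1 + corin sample. The T and NK cell (16.9 to 35.1 and 21.4 to 41.4 CPM), B cell (109 to 148 and 57.9 to 145 CPM) and endothelial lists (56.5 to 129 and 63.0 to 146 CPM) overlapped between the groups. Erythroid genes (0 and 0 to 2.10 CPM) and mast cell genes (0 to 1.25 and 0 to 1.66 CPM) were nearly absent. The part of these transcripts in the treatment differences below was not tested beyond 1 repeat. It left out cells with 2 or more UMIs of S100a8 and S100a9, of the melanoma genes Pmel, Mlana, Dct and Tyrp1 or of the endothelial genes named above. Cells were not left out for monocyte, fibroblast or dendritic cell transcripts.

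Gene levels were then compared between treatments with edgeR's quasi-likelihood test on UMIs summed per sample over the resident-like macrophages, with TMM-scaled CPM for each sample and Benjamini-Hochberg adjustment over 7207 genes outside the selection. In these cells 90 genes rose (1.25% of those tested) and 73 fell (1.01%) at an adjusted p under 0.05, and 1727 genes (24%) had no overlap between the groups. The other C1q macrophages gave 34 genes that rose (0.315%) and 9 that fell (0.0833%) of 10803. The rises included chemokines, apolipoproteins, integrins and genes of monocytes, and the falls growth factors, a scavenger receptor and an iron exporter. The count of calls in the resident-like macrophages changed with each library left out. Without αPD-1 replicate 1 it was 0 (1078 genes at an unadjusted p under 0.05), and without αPD-1 replicates 2 or 3 it was 6 or 16. Without αPD-1 + corin replicates 1 or 2 it was 81 or 59. Without αPD-1 + corin replicate 3 it rose to 794, and all 163 calls of the main test were among them. Over 17 alternatives of selection, replicates and method, Saa3 passed the threshold in 16, Ly6c2, Apoc2, Plac8 and Mmp14 in 15, Ccl2 and Ccl7 in 9, Igf1, Pdgfc and Itgb2 in 8, Ccl4 in 7 and Lyz2 in 6. The adjusted p-values below are from this edgeR test.

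Saa3, an acute-phase apolipoprotein made by activated macrophages (chromosome 7, 46361422-46365576, minus strand), had the lowest adjusted p. It was at 124, 68.3 and 172 CPM under αPD-1 and 1576, 1152 and 1503 CPM under αPD-1 + corin, a log2 fold change of 3.58 ± 0.292 (SE, adjusted p = 0.00085). The αPD-1 + corin samples were all far above the αPD-1 samples, and Saa3 also rose in the other C1q macrophages, by 3.97 (adjusted p = 0.00329). T cell barcodes, whose CPM are given without TMM scaling throughout, had 1.6 to 16 CPM of Saa3 in the αPD-1 and 12.5 to 644 CPM under αPD-1 + corin, below the resident-like macrophages in every sample.

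Of the apolipoprotein C genes, which regulate the handling of lipoproteins by lipases, Apoc2 (chromosome 7, 19405504-19411877, minus strand) rose from 26.2, 33.5 and 33.3 CPM to 300, 294 and 140 CPM, a log2 fold change of 3.01 ± 0.313 (adjusted p = 0.00234). Apoc1 rose from 1.38, 7.45 and 0 CPM to 65.8, 59.4 and 25.4 CPM (adjusted p = 0.0123), with αPD-1 values of a few UMIs at most. In the list of 30 lipid and lysosome genes, all 30 were tested, these 2 rose and 0 fell, with a median log2 fold change of 0.08 against 0.000215 over all genes. Apoe, the main apolipoprotein of macrophages, was at 4768, 7560 and 4882 CPM against 11939, 8794 and 9419 CPM, without overlap (log2 0.81, adjusted p = 0.064).

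Chemokine ligands were the list with the most calls, with 8 of 18 tested members higher, 0 lower and a median log2 fold change of 0.98. In the other C1q macrophages 22 of the list were tested without a call, and the median was 1.19. Ccl2 (chromosome 11, 81926397-81928279, plus strand), which recruits CCR2+ monocytes, was at 775, 692 and 1213 CPM under αPD-1 and 3857, 3919 and 1379 CPM under αPD-1 + corin (log2 1.78 ± 0.356, adjusted p = 0.035). Its neighbor Ccl7, with the same receptor among others, rose from 689, 578 and 763 CPM to 2190, 2066 and 1010 CPM (1.38, adjusted p = 0.0321). In both genes αPD-1 + corin replicate 3 lay just above the αPD-1 range and the other 2 replicates well above it.

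Ccl6, a ligand of CCR1, rose from 2956, 3197 and 3205 CPM to 8295, 6292 and 4907 CPM (1.06, adjusted p = 0.0229). Ccl3 and Ccl4, the macrophage inflammatory proteins 1α and 1β, rose by 1.49 (adjusted p = 0.0333) and 0.91 (adjusted p = 0.0419), and Ccl5 rose by 2.74 from a level of 4.14 to 12.4 CPM (adjusted p = 0.00856). The neutrophil attractants Cxcl2 and Cxcl3 rose by 2.19 (adjusted p = 0.0251) and 6.10 (adjusted p = 0.0134), Cxcl3 from 2.76, 3.72 and 2.78 CPM to 144, 450 and 55.1 CPM. For Cxcl2 and Cxcl3, T cell barcodes were at or above the resident-like macrophages in 2 of the 3 αPD-1 + corin samples. For Ccl3, Ccl4 and Ccl5, which T cells express, they were so in all 3, and for Ccl3 and Ccl5 in every αPD-1 sample too. How much of these chemokine levels came from RNA outside the cells was not tested. For Ccl6, T cell barcodes stayed under 10% of the resident-like level in 6 of 6 samples. For Ccl2, T cell barcodes had 33.3 to 155 CPM and 131 to 816 CPM. After thinning to 2000 UMIs, 56.9% of the resident-like macrophages under αPD-1 and 85.5% under αPD-1 + corin held a Ccl2 UMI on average, against 2.42 to 8.47% and 8.74 to 33.3% of T cell barcodes.

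Ppbp, a chemokine best known from platelets, and Ccl24, an eosinophil attractant, showed how αPD-1 + corin replicate 3 stood apart. Ppbp was at 5.53, 4.96 and 13.9 CPM under αPD-1 and 420, 1519 and 2.83 CPM under αPD-1 + corin. Cells with 3 or more UMIs of the pair were 1.90, 12.8 and 7.69% of the resident-like macrophages under αPD-1 and 25.7, 42.6 and 2.48% under αPD-1 + corin, and T cell barcodes had at most 14.9 CPM of Ppbp. Fibronectin (Fn1, 148, 105 and 308 CPM against 1654, 1498 and 22.6 CPM) and Arg1 (908, 343 and 427 CPM against 2775, 2941 and 203 CPM) had the same order, and none of these 4 genes passed the test. The class II genes had another order, with H2-Aa at 641, 794 and 697 CPM against 581, 1243 and 2476 CPM, and all 13 tested class II genes had a positive log2 fold change without a call (median 0.44).

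**Figure D4:**
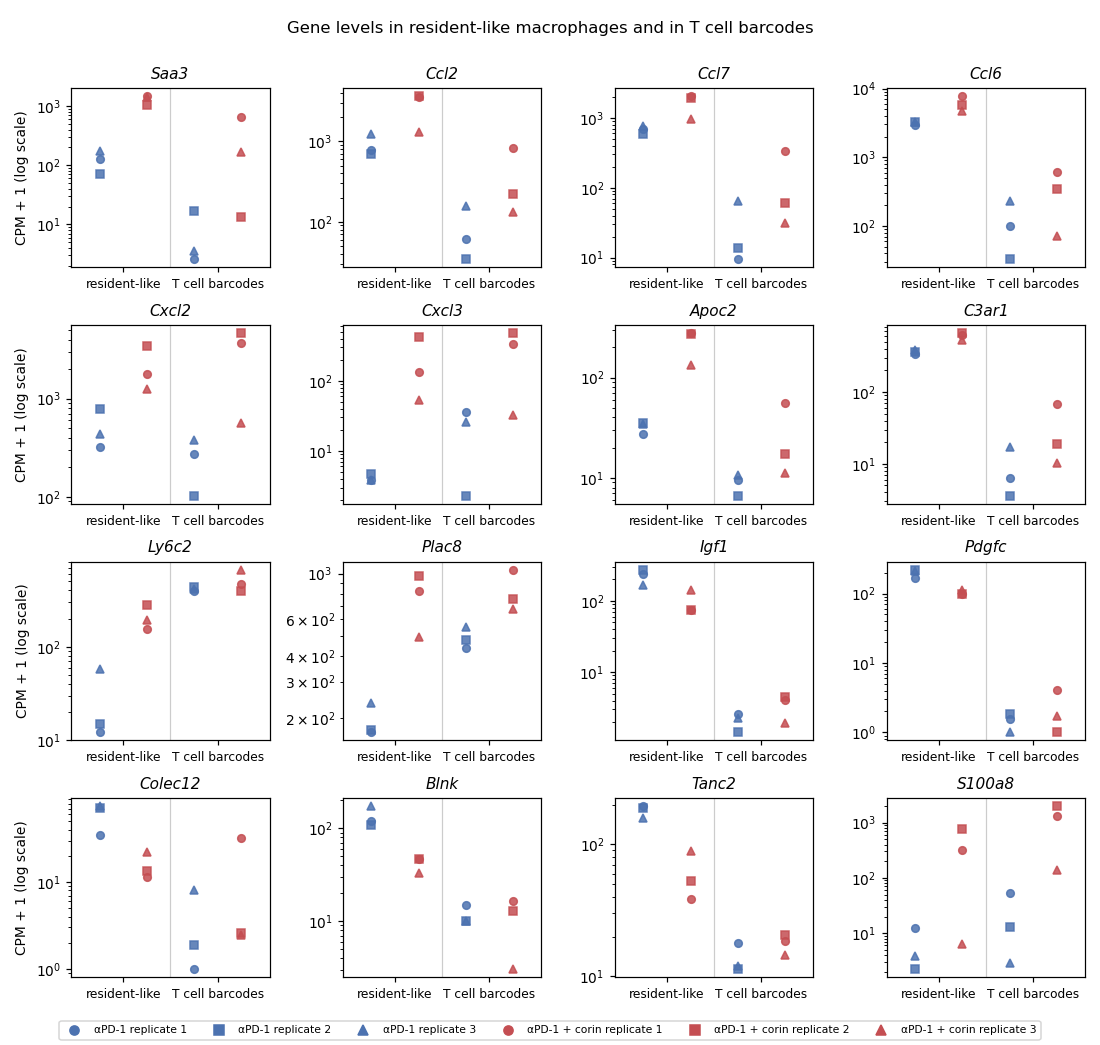
CPM + 1 on a log scale for 16 genes in resident-like macrophages (left of each panel) and in T cell barcodes (right), with 1 symbol per sample, blue for αPD-1 and red for αPD-1 + corin. Saa3, Ccl2, Ccl7 and Ccl6 lay above the T cell barcodes of the same sample in all 6 samples, while Cxcl2, Cxcl3, Ly6c2, Plac8 and S100a8 did not in at least 2 αPD-1 + corin samples. For Ly6c2 and Plac8 the T cell barcodes were also higher in every αPD-1 sample.

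Of 9 tested monocyte genes, 3 rose and 0 fell, with a median of 1.85. Ly6c2 (chromosome 15, 74980003-74988467, minus strand), which encodes a surface protein of classical monocytes, was at 11.1, 13.7 and 55.5 CPM under αPD-1 and 166, 303 and 205 CPM under αPD-1 + corin (log2 3.34 ± 0.452, adjusted p = 0.00856), without overlap. Its near-identical neighbor Ly6c1 can share reads with it. T cell barcodes exceeded the resident-like macrophages in Ly6c2 in every sample of both groups, with 390 to 434 CPM under αPD-1 and 390 to 664 CPM under αPD-1 + corin. Plac8, another monocyte gene, rose from 167, 171 and 233 CPM to 892, 1061 and 519 CPM (2.13 ± 0.26, adjusted p = 0.00615), against 433 to 548 and 670 to 1042 CPM in T cell barcodes, which express it. The other call was Ms4a4c (1.31, adjusted p = 0.0161).

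Of 11 tested complement genes, 3 rose and 0 fell, with a median of 0.28. Itgam, the α chain of complement receptor 3, rose from 322, 287 and 319 CPM to 749, 714 and 520 CPM (1.10 ± 0.174, adjusted p = 0.0145), and its partner chain Itgb2 rose by 0.88 (adjusted p = 0.0407). C3ar1, the receptor for the fragment C3a, rose from 330, 354 and 375 CPM to 683, 719 and 562 CPM (0.90, adjusted p = 0.0229). The C5a receptor C5ar1 differed by 0.28 and did not pass (adjusted p = 0.32). C1qa, C1qb and C1qc themselves, which were part of the selection, had log2 differences of 0.03, 0.10 and 0.05.

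Other lists had 1 to 3 calls each. Mmp14, a membrane-bound collagenase, rose from 31.8, 24.8 and 38.9 CPM to 88.2, 99.4 and 117 CPM (1.70 ± 0.218, adjusted p = 0.00677), and T cell barcodes reached the resident-like level in 1 αPD-1 + corin sample. The transcription factor Cebpb, which drives myeloid and acute-phase genes, rose by 0.86 (adjusted p = 0.0409) and was the 1 call among 27 tested transcription factors. Lyz2, the macrophage lysozyme, whose paralog Lyz1 can share reads, rose by 0.61 (adjusted p = 0.0476), and Pilra, an inhibitory receptor, by 1.14 (adjusted p = 0.0237). The immediate early genes Egr1 and Ier3 rose by 0.99 (adjusted p = 0.0352) and 1.33 (adjusted p = 0.033). Ifitm3, an antiviral membrane protein, rose by 0.84 (adjusted p = 0.0242) and with Ms4a4c made up the 2 calls among 47 tested interferon-stimulated genes, whose median was 0.22.

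Several of the largest rises were in genes of neutrophils and their precursors. Il1r2, a decoy receptor for interleukin-1, rose by 4.80 (adjusted p = 0.0342), the granule protease Prtn3 by 3.96 (adjusted p = 0.0323), the leukotriene receptor Ltb4r1 by 3.30 (adjusted p = 0.0384) and Ifitm1 by 3.20 (adjusted p = 0.043). Cstdc4, a cystatin of a multigene family, had 1, 0 and 0 UMIs under αPD-1 and 218, 202 and 40 UMIs under αPD-1 + corin (adjusted p = 0.0126). T cell barcodes were above the resident-like macrophages in every sample of both groups for Il1r2 and Ifitm1. For Cstdc4 they were above in 2 αPD-1 + corin samples, and the neutrophil list rose with treatment as given above. Il1r2 was the 1 call among 5 tested neutrophil genes.

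Further rises were picked after their values were seen, for what the genes do. Ly6a, the stem cell antigen SCA-1 that interferon induces, was at 373, 316 and 549 CPM under αPD-1 and 1832, 1714 and 2117 CPM under αPD-1 + corin (2.20, adjusted p = 0.0019), with 455 to 583 and 553 to 815 CPM in T cell barcodes. The chemokine receptor Ccr1 rose by 1.57 (adjusted p = 0.0384). Ltc4s, among the genes that set the resident-like macrophages apart, rose from 276, 264 and 266 CPM to 1153, 443 and 634 CPM (1.47, adjusted p = 0.0352).

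Among the falls were growth factors for stromal cells. Igf1 (chromosome 10, 87693642-87772904, plus strand), insulin-like growth factor 1, was at 236, 269 and 167 CPM under αPD-1 and 78.6, 78.7 and 150 CPM under αPD-1 + corin (-1.21 ± 0.268, adjusted p = 0.0468), with αPD-1 + corin replicate 3 close to the lowest αPD-1 sample. Pdgfc, a platelet-derived growth factor, went from 166, 217 and 205 CPM to 106, 107 and 116 CPM (-0.84, adjusted p = 0.0323). For both genes T cell barcodes stayed under 10% of the resident-like level in 6 of 6 samples. With Mmp14 these were the 3 calls among 22 tested growth factor and matrix genes.

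Colec12, a scavenger collectin that binds oxidized lipoproteins, fell from 33.2, 69.5 and 72.2 CPM to 11.4, 13.5 and 22.6 CPM (-2.04 ± 0.342, adjusted p = 0.02) and was the 1 call among 23 tested scavenger and apoptotic-cell receptors. Slc40a1, the iron exporter ferroportin, was the 1 call among 22 iron and heme genes (-2.59, adjusted p = 0.0363), but its groups overlapped, with 67.7, 83.1 and 8.33 CPM against 7.79, 15.2 and 4.24 CPM. Gas6 and the scavenger receptor Stab1 were lower without overlap and missed the threshold (-0.80 and -0.59, both adjusted p = 0.078).

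Other falls were in signaling and transport genes. Blnk, an adaptor of immunoreceptor signaling, fell from 117, 107 and 169 CPM to 49.3, 49.7 and 33.9 CPM (-1.48, adjusted p = 0.0111), and Anpep, the peptidase CD13, from 77.4, 72 and 80.5 CPM to 27.7, 33.7 and 17.0 CPM (-1.45, adjusted p = 0.0126). Tanc2 (-1.59, adjusted p = 0.02), the bicarbonate transporter Slc4a7 (-1.65, adjusted p = 0.0273), Ldlrad4, which dampens TGF-β signaling (-1.56, adjusted p = 0.0108), Snx29 (-1.44, adjusted p = 0.0123), Reps2 (-1.45, adjusted p = 0.00856) and Plekhg5 (-1.48, adjusted p = 0.0367) were the remaining named falls. The genes that fell were long. Their median span was 142 kb, and 59.7% of them covered more than 100 kb, against 10.6 kb and 5.62% for the genes that rose and 28.5 kb and 14.8% for all genes tested. Over the 1064 tested genes longer than 100 kb the median log2 fold change was -0.33, and it was -0.22 in the other C1q macrophages, so that long genes leaned lower in both classes, and the part of gene length in the falls was not tested.

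**Figure D5:**
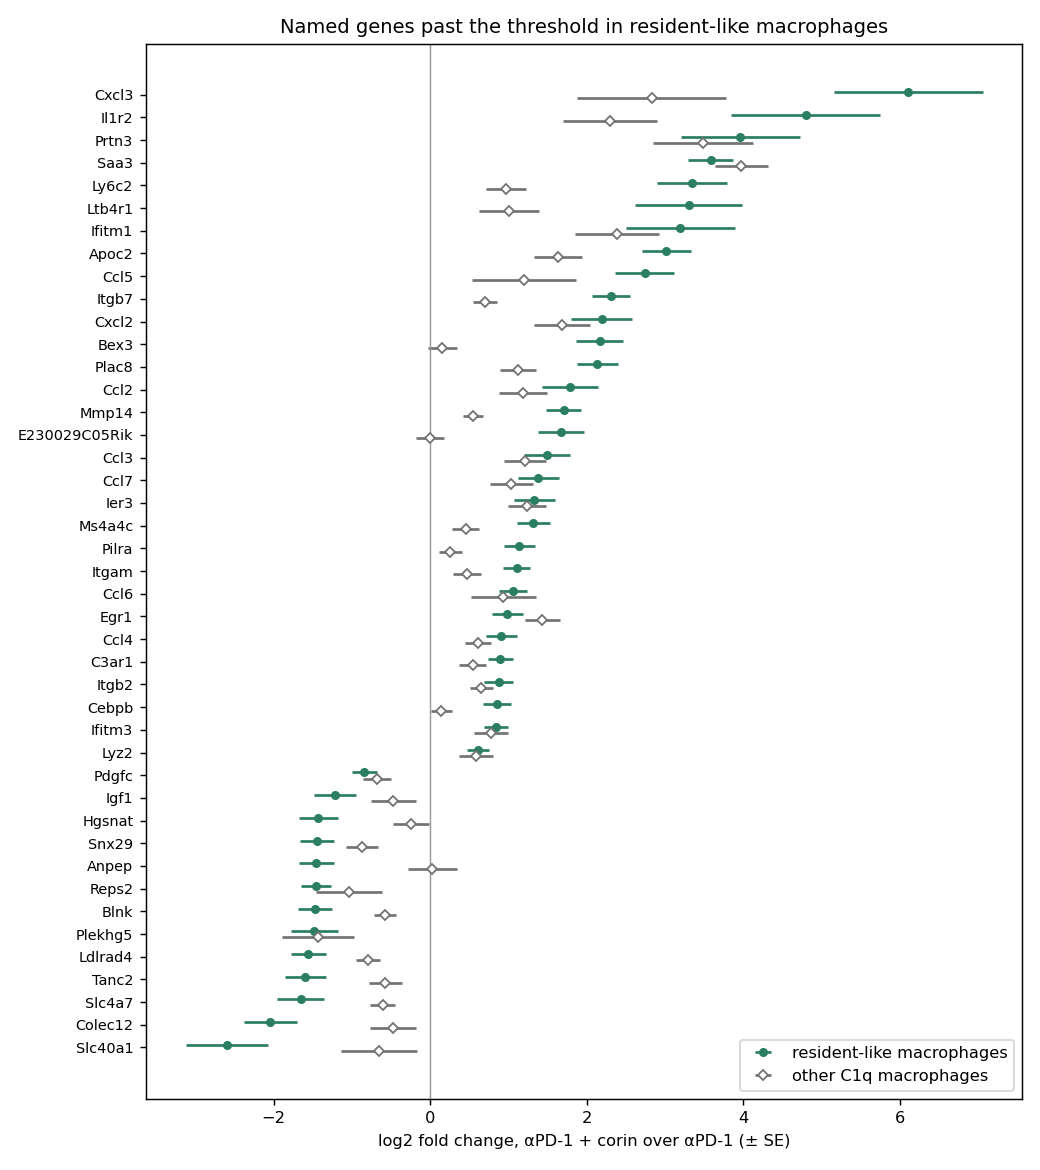
Log2 fold change (± SE) of αPD-1 + corin over αPD-1 for the named genes past the threshold, in resident-like macrophages (filled circles) and in the other C1q macrophages (open diamonds). Cstdc4 and Apoc1, below 1 CPM in the other macrophages of the αPD-1 group, are not drawn. Both classes moved by similar amounts for Saa3, Ier3 and Lyz2, and Bex3, E230029C05Rik and Anpep had values near 0 in the other macrophages.

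The resident identity itself gave no call in the resident-like macrophages. In the other C1q macrophages 22 of its 30 genes were tested, 1 rose and 0 fell, and the median log2 fold change was 0.64. In the resident-like macrophages 24 were tested, 0 rose and 0 fell, and the median log2 fold change was 0.24. Cbr2 was at 1120, 1334 and 1193 CPM under αPD-1 and 2036, 1266 and 1375 CPM under αPD-1 + corin (0.36, adjusted p = 0.307), and Ccl8 at 2833, 2949 and 3588 CPM against 3553, 6329 and 4817 CPM (0.65, adjusted p = 0.115). Cd5l varied more, at 33.2, 78.2 and 11.1 CPM against 264, 74.5 and 247 CPM (2.10, adjusted p = 0.071). Mrc1 and Cd163 differed by 0.75 (adjusted p = 0.129) and 1.05 (adjusted p = 0.18). In these 5 genes the samples of the groups overlapped, and after thinning to 2000 UMIs the share of cells with a Cbr2 UMI was 75.9 ± 5.08% and 77.7 ± 5.57% (exact permutation p = 0.5), against at most 0.737% of T cell barcodes.

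Cells with a UMI of the cell cycle genes Mki67 or Top2a were 14.3 ± 2.90% of the thinned resident-like macrophages in the αPD-1 and 7.66 ± 3.99% under αPD-1 + corin, without overlap. The exact permutation p was 0.1, or 0.571 when adjusted over the 8 shares compared, and 0 of 25 tested cell cycle genes passed the edgeR test, with a median of -0.53. In the other C1q macrophages the shares were 17.1 and 13.1%. A share without division was not at hand, since 9.25 to 21.6% of thinned T cell barcodes and 3.95 to 14.6% of thinned B cell barcodes held an Mki67 UMI, so that the values for the resident-like macrophages are not read as a share of dividing cells.

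Lists without a call were the Fc receptors (6 tested, median 0.51), MHC class I (22, 0.29), cytokines and inflammatory mediators (19, 0.53), hypoxia and glycolysis (21, 0.45), metallothioneins (2, 0.01) and the 12 tested genes of the CoREST complex (0.05). Of the core macrophage list, 15 were tested and Itgam and Lyz2 were the 2 calls (median 0.22). Pilra was the 1 call of 14 tested checkpoint ligands and inhibitory receptors (0.30), and Egr1 and Ier3 were the 2 of 27 immediate early and heat shock genes (0.10). Of the lists of other cells, 2 dendritic cell, 1 T and NK cell, 2 B cell, 5 melanoma and 2 endothelial genes were tested without a call, and no fibroblast, erythroid or mast cell gene passed the filter on low counts.

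An interaction tested whether a gene's treatment difference in the resident-like macrophages differed from that in the other C1q macrophages of the same samples. Shifts of the same proportion in both classes of a library cancel in it. An equal number of CPM added to both classes does not cancel, since it moves the class with the lower level more on the log2 scale. The part of such additions in the calls was not tested. Of 10586 genes, 16 passed (0.151%), a count that was 8, 1 and 26 without αPD-1 replicates 1, 2 and 3 and 31, 4 and 36 without αPD-1 + corin replicates 1, 2 and 3. Ly6c2 moved by 3.34 in the resident-like and 0.97 in the other macrophages, where it started at 119 CPM, a difference of 2.30 ± 0.292 (edgeR adjusted p = 0.0115). Plac8 started at 385 CPM in the other macrophages and moved by 1.13 there, 0.98 less than in the resident-like cells (edgeR adjusted p = 0.0421). Under αPD-1 + corin the other macrophages averaged 233 CPM of Ly6c2 and 839 CPM of Plac8, against 224 and 824 CPM in the resident-like macrophages, so that the classes lay closer together in these genes than under αPD-1.

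The integrin chain Itgb7, which pairs with α4 or αE, was at 11.1, 12.4 and 8.33 CPM and 52.9, 54.7 and 59.3 CPM in the resident-like macrophages, and its interaction was 1.65 (edgeR adjusted p = 0.0369). T cell barcodes were above the resident-like level of Itgb7 and Bex3 in every sample of both groups. Under αPD-1 they had 149 to 176 CPM of Itgb7 and 58.9 to 73.2 CPM of Bex3. Apoc2 had an interaction of 1.37 (edgeR adjusted p = 0.0465). For Bex3 the difference was 2.05 (edgeR adjusted p = 0.0152) and for the noncoding transcript E230029C05Rik 1.67 (edgeR adjusted p = 0.0369). Hgsnat, a lysosomal acetyltransferase, fell from 128, 93.1 and 97.1 CPM to 31.4, 37.9 and 59.3 CPM with an interaction of -1.05 (edgeR adjusted p = 0.0369). No named chemokine passed, and the interaction of Ccl2 was 0.57 (edgeR adjusted p = 0.43) and that of Saa3 -0.37 (edgeR adjusted p = 0.759), which does not show that the classes responded alike. Without the cells that held 2 or more UMIs of the neutrophil, melanoma or endothelial genes, 148 treatment calls were made in the resident-like macrophages. Of these, 127 were in common with the 163, and 4 interactions passed, 3 of them in common with the 16.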

How the data were processed

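The authors deposited, for each of the 6 samples, a matrix of UMI counts per gene and barcode (raw counts, 32285 genes), and the submitters' processing notes name Cell Ranger 8.0, Seurat 5.0.11 and GRCm39. Here the barcodes were selected as described above with Python 3.11.15. The study removed doublets with DoubletFinder; the selection names no doublet step, and leaving out the barcodes with the highest Scrublet scores (scanpy 1.11.5) was an alternative. The counts of each sample's resident-like and other C1q macrophages were added up and tested with edgeR 4.0.16 (R 4.3.3, glmQLFit and glmQLFTest, TMM, filterByExpr, adjusted p under 0.05), with DESeq2 1.42.0 as an alternative and the sample as a block in the interaction. The 12 genes of the selection stayed in the fit and are given without a test. Shares were compared with two-sided exact permutation tests (scipy 1.17.1). Levels in log2 used a pseudocount of 1 CPM. CPM compares a gene between samples, not genes with each other. T cell barcodes had at least 2 Cd3d, Cd3e and Cd3g UMIs, no C1q UMI and no B cell UMI of the selection.

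Named genes were called genes of the 30 lists, the 10 largest rises and falls whose groups did not overlap and whose higher group reached 50 CPM, and up to 8 interactions each way that reached 50 CPM. The cells and lists were chosen with earlier results of these data known. Gene positions are those of GENCODE on GRCm39. On simulated data with 200 changed genes the tests were checked for recovery and false calls. Same-numbered samples were checked for pairing. Alternatives changed the selection, the depth, the replicates, the scaling, the filter and the tool. The depth of the sums was 355634 to 9042862 UMIs.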

Additional observations from a re-analysis of the deposited data

Results flagged for a closer look

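The treatment difference in the resident-like macrophages differed from that in the other C1q macrophages for 9 named genes, by edgeR's quasi-likelihood test of the interaction with Benjamini-Hochberg adjustment. On the log2 scale, the resident-like minus the other difference was 2.30 for Ly6c2, 2.05 for Bex3, 1.90 for Sirpb1a, 1.67 for E230029C05Rik, 1.65 for Itgb7, 1.37 for Apoc2 and 0.98 for Plac8. It was -1.05 for Hgsnat and -4.94 for Prkg1. Sirpb1a, of a family of similar genes that can share reads, was at 6.91, 12.4 and 5.55 CPM under αPD-1 and 10.4, 22.7 and 45.2 CPM under αPD-1 + corin and was too low for a test within the resident-like macrophages. Prkg1 rested on 1 library, with 296 CPM in αPD-1 replicate 1 against 13.7 and 2.78 CPM in the other αPD-1 samples and 14.9, 8 and 5.65 CPM under αPD-1 + corin.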

How the results depend on the processing

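The 163 treatment calls became 104 with at least 5 UMIs of Lyve1, Folr2 and Fcna, 93 with at most 5% mt- UMIs, 76 with no upper limit on genes, 46 with barcodes thinned first (44 of them in common) and 813 with no filter on low counts. Leaving out 1 replicate gave 0 to 794 calls. At least 2 UMIs, doublet scores, other lineages left out, RLE scaling and DESeq2 gave 194, 186, 148, 166 and 204. The 16 interactions became 8 with at least 2 UMIs, 4 with at most 5% mt- UMIs, 0 with no upper limit on genes (682 at an unadjusted p under 0.05), 4 with other lineages left out and 147 with no filter, and 1 to 36 when 1 replicate was left out. DESeq2 gave 11. The interaction of Prkg1 turned to 0.00969 with no upper limit on genes. The cause of these changes was not tested.

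With the replicate number as a block (replicate block), there were 215 calls and 61 interactions, and the share differences were 13.6 and 8.73 points (exact permutation p = 0.25, the smallest 3 pairs allow). Deviations of same-numbered samples correlated at 0.028, -0.030 and 0.059, and not every sample correlated best with its own number. Whether same-numbered samples were paired or processed together was not given in the sources used here, and these correlations do not decide it. Leaving out 1 replicate moved the share of C1q macrophages to 5.69 to 21.9 points and the share of filtered barcodes to 3.41 to 12.9 points. Over all alternatives for the named genes, 480 of 695 treatment values and 79 of 153 interactions kept their side of the threshold. The αPD-1 sums rest on 52 to 105 cells a sample, where 1 UMI in replicate 3 is worth 2.78 CPM, and small differences were not detectable at this depth.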
